A study of Mus musculus with 12 samples.

Results

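Rab GTPases are the family of small GTPases that mark intracellular membranes and direct vesicle traffic, and the 59 protein-coding Rab genes in the spinal cord count table were examined here among its 45906 genes. Members were chosen by name alone, as gene symbols made of Rab, a number and at most 1 letter with the biotype protein_coding, a rule that uses no measured value. Of the 59 genes, 57 passed the filter on low counts and were tested, and only Rab17 and Rab25 did not.

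The libraries came from whole spinal cord of 7-month-old mice, with 3 mice in each of 4 genotypes. Plekhg5+/+ mice without a transgene were the controls, Plekhg5-/- mice lacked the exchange factor Plekhg5, Plekhg5+/+ SOD1G93A mice carried a human SOD1 transgene with the G93A mutation, and Plekhg5-/- SOD1G93A mice combined both. The study took its transgene from the low copy SOD1G93A line, a slowly progressing model of amyotrophic lateral sclerosis. The design addresses how loss of Plekhg5, the transgene and their combination change spinal cord transcripts, and here the question is asked of the Rab genes and above all of Rab26, the GTPase that Plekhg5 is reported to activate.

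A Rab protein is active when it binds GTP, and it then sits on a membrane and recruits effectors such as tethers and motors. Guanine exchange factors load the GTP, GTPase activating proteins end the active state, and GDP dissociation inhibitors take the inactive protein off the membrane. In motoneurons this traffic serves long axons and synapses: Rab3 and Rab27 proteins act in synaptic vesicle release, Rab26 sits on synaptic vesicles and has been linked to their autophagy, and Rab7 carries cargo to lysosomes. A transcript count does not measure how much of a Rab protein is in its active, GTP-bound form.

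Depth and labels were checked first. Total counts lay between 30415643 and 38743628 per library. Plekhg5 itself was at 22.9 ± 3.08 counts per 1000000 counts of its library (CPM; SD, n = 3) in Plekhg5+/+ mice and 22.4 ± 2.19 CPM in Plekhg5+/+ SOD1G93A mice, against 3.98 ± 0.712 CPM in Plekhg5-/- mice and 4.26 ± 0.413 CPM in Plekhg5-/- SOD1G93A mice. Human SOD1 was at 4993 ± 612 CPM in Plekhg5+/+ SOD1G93A mice and 5001 ± 97.1 CPM in Plekhg5-/- SOD1G93A mice, and its mean was 0.959 and 2.64 CPM in the 2 groups without the transgene. The labels do not name the sex of the mice, and Y-linked transcripts were present in 3, 2, 2 and 1 of the 3 libraries of Plekhg5+/+, Plekhg5-/-, Plekhg5+/+ SOD1G93A and Plekhg5-/- SOD1G93A mice. In whole tissue, fewer cells of a type and less RNA per cell cannot be told apart.

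The whole family took a nearly constant share of the transcriptome. Summed over its 59 genes it came to 5620 ± 75.8 CPM in Plekhg5+/+ mice, 5629 ± 184 CPM in Plekhg5-/- mice, 5504 ± 80.7 CPM in Plekhg5+/+ SOD1G93A mice and 5633 ± 24.7 CPM in Plekhg5-/- SOD1G93A mice (SD, n = 3 each). Of the 57 genes with a count above 0 in all 12 libraries, 42 differed by less than 1.5-fold between their highest and lowest library, and the median of that ratio was 1.26. Rab44, Rab32, Rab7b and Rab29 spread most, with ratios of 4.78, 3.12, 2.97 and 2.78.

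Levels between genes were compared as CPM per kb of exon, in Plekhg5+/+ mice. Rab3a, the main Rab of synaptic vesicle exocytosis, was highest with 238 ± 15.9 CPM per kb (SD, n = 3). Rab6a, which acts at the Golgi, followed with 148 ± 2.30 CPM per kb, and Rab7, the Rab of late endosomes and lysosomes, with 106 ± 4.46 CPM per kb. The lowest of the 3 libraries for each of these genes lay above the highest library of the gene ranked next. Rab6b, a neuronal relative of Rab6a, at 80.1 ± 5.50 CPM per kb and Rab14, an endosome and Golgi Rab, at 78.1 ± 1.91 CPM per kb overlapped each other and were not separated. Those 5 genes held 38.2% of the family's summed level.

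At the other end Rab20 was at 0.426 CPM per kb, Rab44 at 0.144, Rab25 at 0.142, Rab19 at 0.0655 and Rab17 at 0.0203. Rab25 and Rab17 are known from epithelia, where they act in recycling and transcytosis. Rab26 ranked 41 of 59 with 4.46 ± 0.221 CPM per kb (SD, n = 3), between Rab36 at 5.06 and Rab13 at 4.04 and overlapping both. It stood at the percentile 51.3 of all genes tested, near the middle. The union of all annotated exons sets these levels, so a gene with long alternative ends is placed lower than its main transcript would be.

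**Figure D1:**
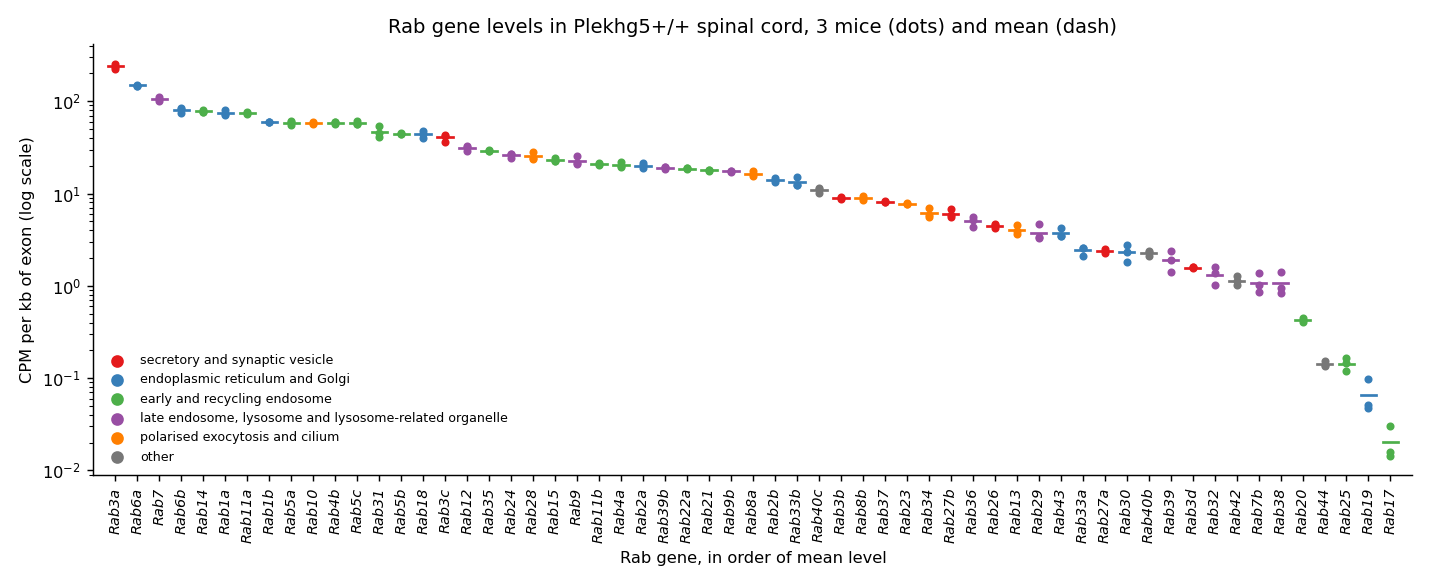
Level of each Rab gene in CPM per kb of exon (log axis) in the 3 Plekhg5+/+ libraries (dots) with their mean (dash), ordered by mean and coloured by the role group. Rab3a is highest at 238 CPM per kb, Rab26 is in rank 41 at 4.46, and Rab17 is lowest at 0.0203.

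By role, the 16 early and recycling endosome genes had a median of 26.1 CPM per kb and the 12 genes of the endoplasmic reticulum and Golgi one of 17.0. The 12 genes of late endosome, lysosome and lysosome-related organelle had a median of 11.2, the 7 of polarised exocytosis and cilium one of 8.95, and the 8 secretory and synaptic vesicle genes one of 7.10. The median over all 59 genes was 16.5 CPM per kb, against 4.18 over the 20155 genes tested. Within the secretory and synaptic vesicle group, levels ran from 1.57 CPM per kb for Rab3d, a Rab of secretory granules, to 238 for Rab3a.

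Differences between genotypes were tested with edgeR's quasi-likelihood test in 1 fit over the 12 libraries, and adjusted p is the Benjamini-Hochberg value over the 20155 genes. A gene is called where its adjusted p is under 0.05. Log2 fold changes are given with their standard error (SE) and, where stated, the 95% confidence interval.

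No change of the Rab26 transcript was detected with loss of Plekhg5. Its gene lies at chr17:24529054-24533747 on the minus strand (GRCm38), with no overlapping annotated gene, and it collected 150 to 229.5 counts per library. In Plekhg5+/+ mice Rab26 was at 6.66, 6.04 and 6.49 CPM in the 3 libraries. In Plekhg5-/- mice it was at 6.41, 6.72 and 6.41 CPM, within or just above the range of the controls. The log2 fold change was 0.02 with a 95% interval of -0.22 to 0.27 (adjusted p = 0.999).

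With the transgene, Rab26 was at 6.01, 4.95 and 5.67 CPM in Plekhg5+/+ SOD1G93A mice and at 5.81, 5.37 and 4.58 CPM in Plekhg5-/- SOD1G93A mice. These ranges overlapped, and the log2 fold change with loss of Plekhg5 was -0.08 with an interval of -0.33 to 0.17 (adjusted p = 0.819). Averaged over both backgrounds, the effect of Plekhg5 loss on Rab26 was -0.03 with an interval of -0.20 to 0.14 (adjusted p = 0.987). Rab26os, a noncoding gene annotated on the opposite strand beside the 3′ end of Rab26 and not overlapping it, was at 2.24 ± 0.135 CPM in Plekhg5+/+ and 2.30 ± 0.171 CPM in Plekhg5-/- mice (SD, n = 3).

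All 6 SOD1G93A libraries had less Rab26 than all 6 libraries without the transgene. The highest of the former was at 6.01 CPM and the lowest of the latter at 6.04 CPM. Rab26 was the only member of the 57 tested with this pattern in either direction, against 1.81% of all genes tested, so that 1 member of 57 is close to the share among all genes. On the raw total counts as scale the same libraries overlapped, at 5.999 and 5.96 CPM, and with DESeq2 size factors they stayed apart, at 5.97 and 6.05 CPM.

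The log2 fold change of Rab26 with the transgene was -0.21 ± 0.113 (SE) in Plekhg5+/+ mice (adjusted p = 0.372) and -0.31 ± 0.113 in Plekhg5-/- mice (adjusted p = 0.813). Averaged over both backgrounds it was -0.26 ± 0.0801, with an interval of -0.43 to -0.09 (unadjusted p = 0.00677, adjusted p = 0.137). Rab26 was therefore not called in any comparison. The interaction, the change of the transgene effect on loss of Plekhg5, was -0.11 with an interval of -0.45 to 0.24 (adjusted p = 0.831).

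Neuron markers were read in the same libraries. The summed level of 10 neuron markers was 11290 to 11320 CPM in Plekhg5+/+ and 10680 to 11170 CPM in Plekhg5-/- mice, against 8936 to 10470 CPM in Plekhg5+/+ SOD1G93A and 9865 to 11060 CPM in Plekhg5-/- SOD1G93A mice. None of those 10 genes was called for the average SOD1G93A effect, with 9 below 0 and a median log2 fold change of -0.09. In Plekhg5-/- mice their median transgene effect was -0.0072, with 4 above and 6 below 0. The summed level of 7 cholinergic motoneuron markers was 317.4 to 324.1 CPM in Plekhg5+/+, 310.8 to 325.4 CPM in Plekhg5-/-, 219 to 292 CPM in Plekhg5+/+ SOD1G93A and 245.7 to 340.5 CPM in Plekhg5-/- SOD1G93A mice. Of these 7 genes 1 was called lower on average, Chodl with a log2 fold change of -0.68 (adjusted p = 0.0337), and none of the neuron or motoneuron markers was at 0 in any library. In Plekhg5-/- SOD1G93A replicates 1, 2 and 3, Rab26 was at 5.81, 5.37 and 4.58 CPM. Neuron markers summed to 11060, 9865 and 10680 CPM in these libraries, and motoneuron markers to 340.5, 245.7 and 315.2 CPM. The part of the neuron and motoneuron marker levels in the Rab26 values was not tested in either background.

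**Figure D2:**
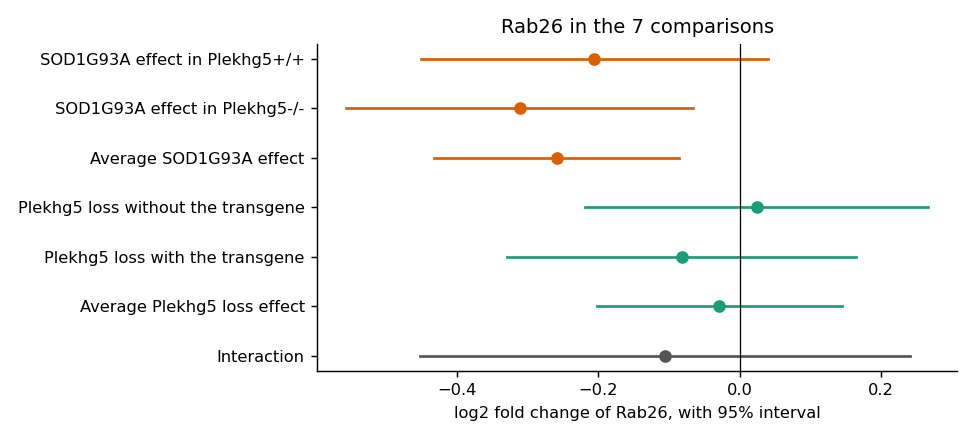
Log2 fold change of Rab26 (dots) with its 95% interval (lines) in the 7 comparisons. The 3 SOD1G93A estimates lie below 0, at -0.21, -0.31 and -0.26, and the 3 Plekhg5 loss estimates lie between -0.08 and 0.02 with intervals across 0.

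The transgene raised 1 Rab transcript in Plekhg5+/+ mice past the threshold, and the 3 members with the smallest p were Rab29, Rab32 and Rab7b. All 3 are in the late endosome and lysosome group, which holds 12 of the 57 genes tested. That grouping was made with earlier results of these data known, so it is no support for a pattern by compartment. Rab29 was the 1 member called of 57, against 2.47% of all genes tested (2.09% higher and 0.377% lower). Rab29, also known as Rab7L1, acts at the Golgi and lysosome and is a partner of the kinase Lrrk2. Among the 12 late endosome, lysosome and lysosome-related organelle genes it was the only one called, and the other 11 did not pass.

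Rab29 was at 6.73, 4.72 and 4.87 CPM in Plekhg5+/+ mice and at 13.1, 7.59 and 8.58 CPM in Plekhg5+/+ SOD1G93A mice. All 3 transgenic libraries were above the controls, and the first was far above the other two. The log2 fold change was 0.84 ± 0.201 (SE), 1.79-fold (adjusted p = 0.0490), and 0.57 without that first library (adjusted p = 0.181). Leaving out 1 library at a time ended the call except for Plekhg5-/- replicate 1 and Plekhg5+/+ SOD1G93A replicates 2 and 3, with log2 fold changes of 0.57 to 1.03. In Plekhg5-/- mice Rab29 was at 7.17, 6.21 and 5.46 CPM without the transgene and at 5.71, 6.38 and 6.89 CPM with it. Those ranges overlapped fully, with a log2 fold change of 0.01 ± 0.202 (adjusted p = 0.999).

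Rab32, which serves lysosome-related organelles and mitochondria, was at 3.25, 2.80 and 2.08 CPM in Plekhg5+/+ mice and at 6.49, 4.22 and 4.53 CPM in Plekhg5+/+ SOD1G93A mice. The groups did not overlap, and the log2 fold change of 0.91 ± 0.228 had an adjusted p of 0.0577. In Plekhg5-/- mice it was at 2.66, 2.14 and 3.44 CPM without the transgene and at 4.47, 3.34 and 3.26 CPM with it. There the groups overlapped, with a log2 fold change of 0.43 ± 0.230 (adjusted p = 0.950). Averaged over both backgrounds the effect on Rab32 was 0.67 ± 0.162 (adjusted p = 0.0666).

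Rab7b, a late endosome Rab in transport to the Golgi, was at 6.55, 4.85 and 4.07 CPM in Plekhg5+/+ mice and at 12.1, 7.16 and 7.56 CPM in Plekhg5+/+ SOD1G93A mice. Its groups did not overlap, and on the log2 scale the difference was 0.79 ± 0.215 (adjusted p = 0.0733). In Plekhg5-/- mice it was at 5.09, 4.94 and 4.99 CPM without the transgene and at 4.35, 5.10 and 6.27 CPM with it, so that the transgenic values lay on both sides of the others.

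The first Plekhg5+/+ SOD1G93A library was the highest of the 12 for Rab29, Rab32 and Rab7b alike. It also had the highest summed level of 14 microglia markers, 2461 CPM, against 1290 and 1369 CPM in the other two libraries of its group. That sum was 659.4 to 772.5 CPM in Plekhg5+/+, 737.5 to 1008 CPM in Plekhg5-/- and 953.1 to 1056 CPM in Plekhg5-/- SOD1G93A mice. Of the 14 markers, 13 were called higher with the transgene in Plekhg5+/+ mice, and none was at 0 in any library. The same library also had the highest sums of the 12 for astrocyte markers (12320 CPM) and oligodendrocyte progenitor markers (561.9 CPM). It had the lowest sums for neurons (8936 CPM) and cholinergic motoneurons (219 CPM), and was neither highest nor lowest for the remaining lists. The part of the microglial or other cell type transcripts in the Rab29, Rab32 and Rab7b values was not tested. Of the other 12 cell type lists, 5 had a marker called in the same comparison: 2 of 10 astrocyte markers (Gfap and Sox9), 1 of 10 for oligodendrocytes (Opalin) and 1 of 8 for mural cells (Tagln) were higher, and 1 of 9 for endothelium (Ly6c1) and 1 of 7 for motoneurons (Chodl) were lower. No marker of neurons, oligodendrocyte progenitors, Schwann cells, ependyma, lymphocytes, red cells or meningeal fibroblasts was called there. The lymphocyte markers Cd3e and Cd3d were at 0 in at least 1 library, the only defining markers of the 13 cell type lists to be so.

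**Figure D3:**
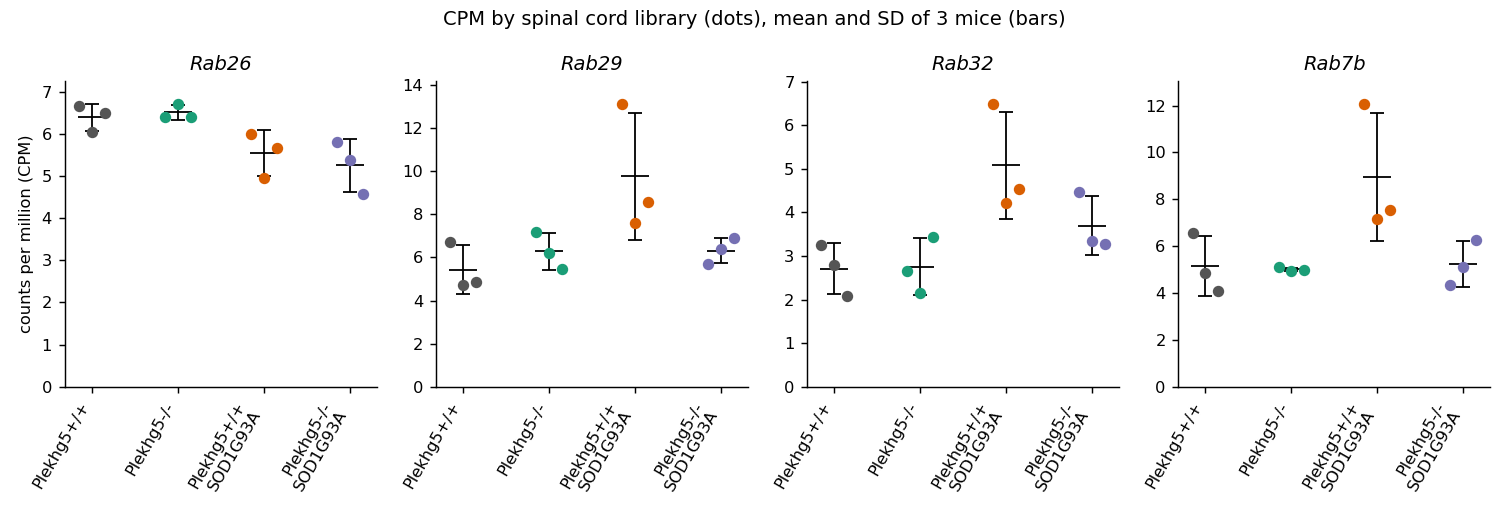
CPM of Rab26, Rab29, Rab32 and Rab7b in each library (dots) with the mean and SD of 3 mice (dash and bars). For Rab26 the 6 SOD1G93A libraries lie at or below 6.01 CPM, and for the other genes the first Plekhg5+/+ SOD1G93A library is the highest, at 13.1, 6.49 and 12.1 CPM.

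Promoter sequence was read for Rab29 and Rab32, the members with the smallest p for the transgene effect in Plekhg5+/+ mice. The promoter table, from RefSeq on GRCm38.p6, holds 60 windows for 48 of the 59 members, and Rab26 and Rab7b are among the 11 without one. The stretches below end 1 base before the first annotated start of the gene and run 5′ to 3′ on its strand, at chr1:131867027-131867209 for Rab29 (plus strand) and chr10:10558208-10558457 for Rab32 (minus strand). Capitals mark the inverted repeat of Rab29 and the motif match of Rab32, described after them.
Rab29: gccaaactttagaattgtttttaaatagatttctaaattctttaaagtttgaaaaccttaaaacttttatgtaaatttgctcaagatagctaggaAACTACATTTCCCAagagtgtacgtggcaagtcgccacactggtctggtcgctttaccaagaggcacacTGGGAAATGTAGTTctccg
Rab32: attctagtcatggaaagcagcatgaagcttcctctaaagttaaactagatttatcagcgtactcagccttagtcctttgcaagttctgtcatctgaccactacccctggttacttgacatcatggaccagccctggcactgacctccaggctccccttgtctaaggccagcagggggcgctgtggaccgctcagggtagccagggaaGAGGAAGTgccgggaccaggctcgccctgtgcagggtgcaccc

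The Rab29 stretch of 183 bases is 37.2% G and C and holds AACTACATTTCCCA once on each strand, 75 to 88 and 6 to 19 bases before the start, as its longest run that recurs on the other strand. These letters were taken from the Rab29 stretch, so its own match was fixed in advance. Of all 32851 promoter windows of 250 bases, 0.18% hold them on either strand, and no other of the 60 member windows does. The Rab32 stretch of 250 bases is 55.6% G and C and holds GAGGAAGT, a form of the site bound by PU.1 and other ETS factors, 36 to 43 bases before the start. That motif is in 2.44% of all windows and in 2 of the 60 member windows, those of Rab32 and Rab2b. The AP-1 motif TGANTCA (6.75% of all windows), the CLEAR motif GTCACGTG (1.85%) and the CRE motif TGACGTCA (1.55%) are in neither stretch and in 2 of the 60 member windows each, and no motif overlaps another here. A match is a description of the letters, and binding was not measured.

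The other Rab genes had larger p. Rab44, at 0.57 to 0.64 CPM in Plekhg5+/+ and 0.63 to 1.35 CPM in Plekhg5+/+ SOD1G93A mice, had a log2 fold change of 0.89 ± 0.525 (adjusted p = 0.409), between those of Rab29 and Rab32 but with a wide interval of -0.25 to 2.03. Rab19, at 0.33 CPM or less in all of these libraries, had one of 0.78 ± 0.626 (adjusted p = 0.555). Its highest values were 0.334 and 0.311 CPM in Plekhg5-/- SOD1G93A replicates 2 and 3 and 0.330 CPM in Plekhg5+/+ SOD1G93A replicate 3. Rab19 passed the filter on low counts only through these libraries, all with the transgene. The sign of its transgene effect is therefore no support for a rise.

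At an unadjusted p under 0.05, 12 of the 57 members differed with the transgene in Plekhg5+/+ mice, 8 higher and 4 lower, which is 21.1% against 18.2% of all genes tested (10.6% higher and 7.51% lower). Groups did not overlap for 13 members, against 20.6% of all genes. The median absolute log2 fold change was 0.07 over the members and 0.13 over all genes tested. Rab5c, an early endosome Rab, was at 121, 111 and 112 CPM in Plekhg5+/+ and 146, 124 and 137 CPM in Plekhg5+/+ SOD1G93A mice. The groups did not overlap, but the log2 difference of 0.24 ± 0.0793 did not pass (adjusted p = 0.124). Rab39, a Rab linked to autophagy and lysosomes, was at 7.05, 5.67 and 4.16 CPM in Plekhg5+/+ and 3.98, 3.63 and 4.23 CPM in Plekhg5+/+ SOD1G93A mice. These overlapped, with a log2 fold change of -0.51 ± 0.174 (adjusted p = 0.139).

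The 8 secretory and synaptic vesicle genes had none called with the transgene in Plekhg5+/+ mice and none past an unadjusted p of 0.05. Their log2 fold changes had a median of -0.07, with 2 above 0. Rab3a was at 479, 423 and 436 CPM in Plekhg5+/+ mice and 386, 430 and 442 CPM in Plekhg5+/+ SOD1G93A mice, with a log2 fold change of -0.09 (interval -0.24 to 0.06, adjusted p = 0.529). The 12 genes of the endoplasmic reticulum and Golgi, the 14 tested of early and recycling endosome, the 7 of polarised exocytosis and cilium and the other 4 had none called either.

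In Plekhg5-/- mice no member was called for the transgene by edgeR, against 0.00496% of all genes. DESeq2 called no member with or without its prior. Over all genes, the settings other than leaving out 1 library, DESeq2 among them, called 0 to 45 genes. At an unadjusted p under 0.05 there were 5 members, 8.77% against 5.38% of all genes. Rab26 had the smallest p of the 57 and was followed by a relative that also works at secretory vesicles. Rab3b was at 39.5, 29.9 and 32.4 CPM in Plekhg5-/- and 27.7, 27.9 and 27.7 CPM in Plekhg5-/- SOD1G93A mice. Its groups did not overlap, and the log2 fold change was -0.29 ± 0.116 (adjusted p = 0.877). Rab3d was at 5.91, 5.95 and 6.22 CPM in Plekhg5-/- and 7.83, 6.80 and 6.84 CPM in Plekhg5-/- SOD1G93A mice, so that its transgenic libraries were the higher ones, with a log2 difference of 0.25 ± 0.105 (adjusted p = 0.892). Groups did not overlap for 9 members, 15.8% against 12.5% of all genes. In this comparison the summed level of 6 Schwann cell markers was 107.5 to 166.4 CPM in Plekhg5-/- and 324.8 to 463.1 CPM in Plekhg5-/- SOD1G93A mice, and that of 4 meningeal fibroblast markers 97.4 to 152.4 and 180.3 to 252.3 CPM. None of these 10 genes was called (smallest adjusted p 0.381 and 0.214), and all 6 Schwann cell markers had groups that did not overlap. Mural cell sums were 171.5 to 250.7 and 258.1 to 279.7 CPM, also with none called. The part of these markers in the Rab values was not tested.

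Loss of Plekhg5 without the transgene left no member called by edgeR, against 0.0298% of all genes tested. DESeq2 called no member, while the settings other than leaving out 1 library, DESeq2 among them, called 4 to 34 of all genes. Leaving out 1 library gave 5 to 59 of all genes, the most without Plekhg5+/+ replicate 3. At an unadjusted p under 0.05 there were 2 members, 3.51% against 5.32%. Rab34, which acts at the Golgi and in the growth of primary cilia, was at 10.5, 10.2 and 12.7 CPM in Plekhg5+/+ mice and 14.8, 14.9 and 13.3 CPM in Plekhg5-/- mice. Every Plekhg5-/- value was higher, and the log2 fold change was 0.37 ± 0.103 (adjusted p = 0.714). Rab15, whose values in all groups are given with the interaction, had the next smallest p, with -0.14 ± 0.0545 (adjusted p = 0.929). Groups did not overlap for 9 members, 15.8% against 8.74% of all genes tested. The median absolute log2 fold change was 0.05 over the members and 0.08 over all genes. Cell type sums in Plekhg5+/+ and Plekhg5-/- mice did not overlap for neurons (11290 to 11320 and 10680 to 11170 CPM) and red cells (542.6 to 950.1 and 439.6 to 531.1 CPM). Those of the other lists overlapped, among them Schwann cells with 124.4 to 351.6 and 107.5 to 166.4 CPM. The part of these markers in the Rab values was not tested.

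Rab33a, a Golgi Rab that also serves vesicle transport in growing axons, was at 10.1, 8.36 and 10.1 CPM in Plekhg5+/+ and 12.8, 10.8 and 10.3 CPM in Plekhg5-/- mice. Its log2 fold change was 0.24 ± 0.120 (adjusted p = 0.945). Rab33a is 1 of 4 members on the X chromosome, with Rab9, Rab9b and Rab39b, and the share of libraries with Y-linked transcripts differed between the groups as given above. None of the 59 members lies within 10 Mb of Plekhg5 on chromosome 4, and the nearest, Rab42, is 19.8 Mb away.

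Loss of Plekhg5 with the transgene left no member called by edgeR, against 0.0347% of all genes tested. DESeq2 called no member, while the settings other than leaving out 1 library, DESeq2 among them, called 5 to 114 of all genes. At an unadjusted p under 0.05 there were 4 members, 7.02% against 8.64%. Rab7b had the smallest p, with a log2 fold change of -0.77 ± 0.215 (adjusted p = 0.402), from 12.1, 7.16 and 7.56 CPM to 4.35, 5.10 and 6.27 CPM. Rab29 was next with -0.63 ± 0.199 (adjusted p = 0.441), and the 3 Plekhg5-/- SOD1G93A libraries were below the 3 Plekhg5+/+ SOD1G93A libraries for both genes. Without the first Plekhg5+/+ SOD1G93A library these became -0.49 and -0.35. This comparison shares its Plekhg5+/+ SOD1G93A libraries with the transgene effect above, so that a high library raises 1 fold change and lowers the other.

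Rab3c, a synaptic vesicle relative of Rab3a, was at 349, 373 and 309 CPM in Plekhg5+/+ SOD1G93A mice and 410.5, 420 and 409 CPM in Plekhg5-/- SOD1G93A mice. All values of the double mutants were higher, with a log2 fold change of 0.27 ± 0.0944 (adjusted p = 0.517). Groups did not overlap for 10 members, 17.5% against 19.5% of all genes tested.

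Cell type markers differed in this comparison too, although none of the markers listed here was called. The 14 microglia markers summed to 1290 to 2461 CPM in Plekhg5+/+ SOD1G93A and 953.1 to 1056 CPM in Plekhg5-/- SOD1G93A mice, with all 14 below 0 beside Rab7b and Rab29 (smallest adjusted p 0.402). Astrocyte markers summed to 8809 to 12320 and 8336 to 8718 CPM, with 8 of 10 below 0 (smallest adjusted p 0.517). Of 10 oligodendrocyte markers 9 were below 0 (smallest adjusted p 0.422), and their sums of 23930 to 28170 and 22640 to 24660 CPM overlapped. The 6 Schwann cell markers summed to 120.4 to 215.3 and 324.8 to 463.1 CPM in the same order (smallest adjusted p 0.275), the 9 endothelial markers to 208.8 to 254.4 and 280.2 to 342.4 CPM (0.402), the 8 mural markers to 213.7 to 226.4 and 258.1 to 279.7 CPM (0.517) and the 4 meningeal fibroblast markers to 121.3 to 175 and 180.3 to 252.3 CPM (0.402). All 10 neuron markers were above 0 beside Rab3c, with a median log2 fold change of 0.15 (smallest adjusted p 0.525), and their sums overlapped. The part of these markers in the Rab values was not tested.

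**Figure D4:**
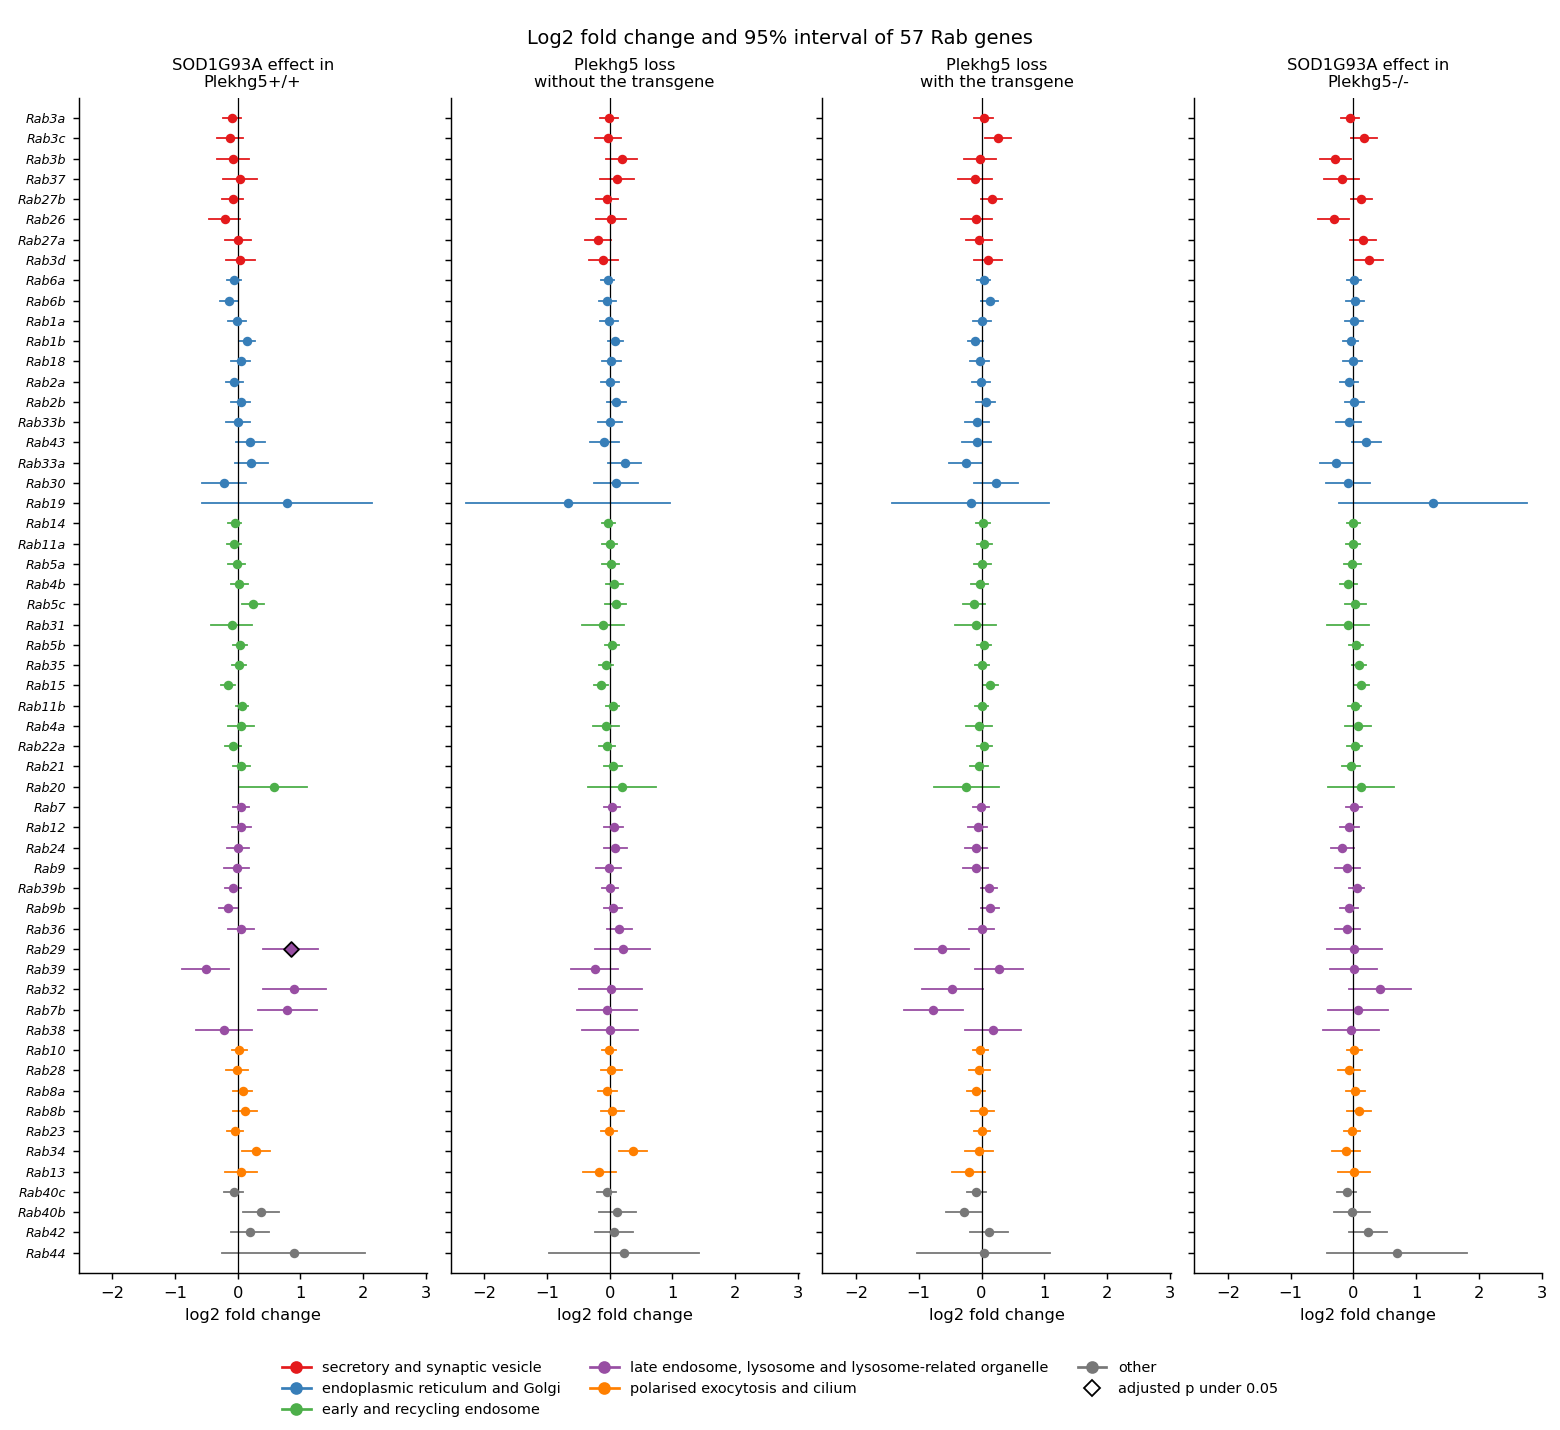
Log2 fold change (symbols) and 95% interval (lines) of the 57 tested Rab genes in 4 comparisons, coloured by role group and, within a group, in order of level. Rab29 with the transgene in Plekhg5+/+ mice, at 0.84, is the only gene with an adjusted p under 0.05 (diamond), and Rab19 and Rab44, at the lowest levels, have the widest intervals.

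Averaged over the backgrounds, no member was called for the transgene, against 1.22% of all genes tested, nor for loss of Plekhg5, against 0.0546%. DESeq2 called Rab32 for the average transgene effect and no member for the average loss of Plekhg5. The settings other than leaving out 1 library, DESeq2 among them, called 234 to 821 and 8 to 21 of all genes in the same order. Leaving out 1 library gave 10 to 560 and 8 to 10, with the 10 for the transgene without Plekhg5+/+ replicate 2. Rab29 had an average transgene effect of 0.43 ± 0.142 (adjusted p = 0.165). The smallest p for the average loss of Plekhg5 were those of Rab7b with -0.41 ± 0.153, Rab34 with 0.17 ± 0.0729 and Rab13, a Rab of tight junctions, with -0.18 ± 0.0850, each with an adjusted p of 0.987. At an unadjusted p under 0.05 there were 9 and 2 members, 15.8% against 14.7% and 3.51% against 3.88% of all genes. For the interaction no gene at all was called by edgeR (0% of all genes). Leaving out 1 library gave 0 to 40 genes, the most without Plekhg5+/+ replicate 3. DESeq2 called 95 genes without its prior and 112 with it, none of them a member, and 7 members had an unadjusted p under 0.05, 12.3% against 9.05%.

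Rab15 had the smallest p for the interaction. It acts in endocytic recycling and is known from neurons. It was at 91.2, 83.9 and 84.3 CPM in Plekhg5+/+ mice, 77.2, 78.6 and 80.1 CPM in Plekhg5-/- mice, 76.7, 81.1 and 75.5 CPM in Plekhg5+/+ SOD1G93A mice and 83.5, 88.3 and 84.9 CPM in Plekhg5-/- SOD1G93A mice. Both single mutants were below the controls in every library, and the double mutants overlapped the controls. The interaction was 0.28 ± 0.0771 on the log2 scale, with an interval of 0.11 to 0.44 (unadjusted p = 0.00352, adjusted p = 0.375).

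Rab1b, which acts between the endoplasmic reticulum and the Golgi, was higher in every mutant library than in the controls, the double mutants included. It was at 110.37, 108.2 and 109 CPM in Plekhg5+/+ mice and 125, 114 and 111 CPM in Plekhg5-/- mice. With the transgene it was at 117.13, 120.4 and 125 CPM in Plekhg5+/+ and 111.05, 110.56 and 117.06 CPM in Plekhg5-/- mice. The interaction of -0.19 ± 0.0802 did not pass (adjusted p = 0.507). For Rab29 it was -0.83 ± 0.285 (adjusted p = 0.457), and -0.56 without the first Plekhg5+/+ SOD1G93A library. Rab34 and Rab33a had interactions of -0.41 ± 0.146 (adjusted p = 0.458) and -0.49 ± 0.170 (adjusted p = 0.457).

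**Figure D5:**
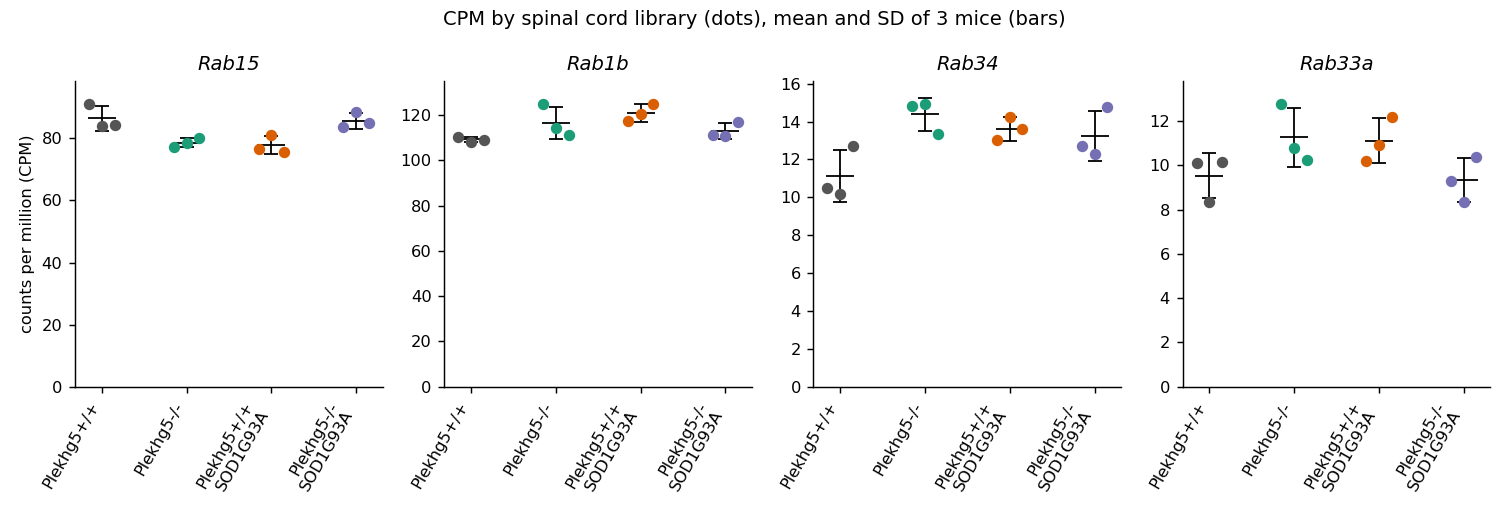
CPM of Rab15, Rab1b, Rab34 and Rab33a in each library (dots) with the mean and SD of 3 mice (dash and bars). Rab15 is at 75.5 to 81.1 CPM in both single mutants and at 83.5 CPM or more in Plekhg5+/+ and Plekhg5-/- SOD1G93A mice.

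The regulators and effectors of the family were read from 6 lists with 122 tested genes. In Plekhg5+/+ mice 2 of them were called with the transgene, 2.56% of the exchange factors and 3.03% of the TBC-domain proteins against 2.47% of all genes tested, so the shares are near the background. None was called in any of the other 6 comparisons. Rab3il1, an exchange factor for Rab3 and Rab8 proteins, was at 14.1, 15.9 and 15.8 CPM in Plekhg5+/+ and 21.1, 18.4 and 19.3 CPM in Plekhg5+/+ SOD1G93A mice. It rose by a log2 fold change of 0.36 ± 0.0810 (adjusted p = 0.0388) and was the 1 gene called of 39 exchange factors. Tbc1d4, a GTPase activating protein known from insulin-regulated transport of glucose transporters, was at 46.0, 51.1 and 53.9 CPM in Plekhg5+/+ and 40.1, 41.3 and 34.8 CPM in Plekhg5+/+ SOD1G93A mice. It fell by 0.38 ± 0.0879 on the log2 scale (adjusted p = 0.0447) and was the 1 gene called of 33 TBC-domain proteins.

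In Plekhg5-/- SOD1G93A mice Rab3il1 was at 15.7, 16.0 and 17.0 CPM and Tbc1d4 at 43.1, 47.6 and 44.4 CPM. Of 20 other settings each, 12 lost the call of Rab3il1 and 11 that of Tbc1d4, among them leaving out any 1 Plekhg5+/+ library, and the log2 fold changes stayed at 0.31 to 0.39 and -0.44 to -0.31. The 8 escort, prenylation and GDP dissociation inhibitor genes, the 13 tested effectors of Rab3, Rab26 and Rab27, the 26 effectors of other Rabs and the 3 Rab kinases and phosphatase had none called. Atg16l1, an autophagy protein that binds Rab26 and Rab33, was at 42.1 ± 2.04 CPM in Plekhg5+/+, 40.2 ± 1.22 CPM in Plekhg5-/-, 39.1 ± 1.68 CPM in Plekhg5+/+ SOD1G93A and 37.5 ± 0.568 CPM in Plekhg5-/- SOD1G93A mice (SD, n = 3 each). Lrrk2, the kinase of Rab29 and other Rabs, was at 33.9 ± 5.33, 33.5 ± 4.60, 31.0 ± 2.30 and 35.5 ± 0.611 CPM in the same order.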

How the data were processed

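Poly-A RNA of spinal cord was sequenced by the authors from oligo-dT, strand-specific libraries, with 3 mice per genotype. Per the labels and the study's methods, reads were demultiplexed with bcl2fastq 2.20.0.422, trimmed with Cutadapt 2.4, mapped with STAR 2.7.2b to GRCm38.p6 plus the human SOD1 cDNA and counted by strand over RefSeq exons with featureCounts 1.6.4. The deposited values are estimated counts per gene, not normalized: reads with several matches or overlapping genes enter as fractions, so 39 of the 59 members carry a fractional count in at least 1 library and near-identical Rab paralogs may share reads.

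Counts were rounded for the tests. Genes were filtered with filterByExpr, scaled by TMM and tested with edgeR 4.0.16 (quasi-likelihood, robust) in R 4.3.3 in 1 fit of the 4 genotypes, with 7 contrasts and Benjamini-Hochberg adjustment over 20155 genes. No row without a gene name entered the library sizes. CPM are deposited counts per 1000000 TMM-scaled counts, and CPM per kb divides by the summed exon length in the table. DESeq2 1.42.0 and Python 3.11.15 with matplotlib 3.10.9 were also used. The edgeR and DESeq2 tests were tried on simulated data for the transgene effect in Plekhg5+/+ mice only.

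The members follow from a rule on gene names that uses no measured value. That rule, the 5 role groups, the 13 marker lists and the 6 regulator lists were nevertheless set with earlier results of these data known. The motifs were chosen after the promoters were seen. Named genes were Rab26, every member called, the 3 members with the smallest p per comparison, the 5 highest and 5 lowest per length, and regulators called. Rab5c, Rab39, Rab3a, Rab1b and the regulators not called were added after their values were seen, as were the DESeq2 and total-count scalings of Rab26. Nothing states that the mice of a group come from separate litters, so p-values measure the spread between these mice. The depth of 30415643 to 38743628 counts left Rab17 and Rab25 too low to test. The alternatives tried were another normalization, DESeq2, other filters and thresholds, a fit of only 2 genotypes, a replicate block, a covariate for Y-linked transcripts and leaving out each library.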

Additional observations from a re-analysis of the deposited data

Results flagged for a closer look

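Rab15 was marked because its changes went in opposite directions in 2 backgrounds and its groups did not overlap in any of the 4 comparisons. With the transgene its log2 fold change was -0.15 in Plekhg5+/+ mice and 0.12 in Plekhg5-/- mice, and with loss of Plekhg5 it was -0.14 without and 0.14 with the transgene. The difference was tested as an interaction of 0.28 (unadjusted p = 0.00352), which did not pass over all genes (adjusted p = 0.375). Over 19 other settings it stayed between 0.24 and 0.32.

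Rab1b was marked for the same reason with loss of Plekhg5, where its log2 fold change was 0.09 without and -0.10 with the transgene. The interaction was -0.19 (unadjusted p = 0.0331, adjusted p = 0.507). With 3 libraries per group, no test for single libraries far from their group was made.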

How the results depend on the processing

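The call of Rab29 with the transgene in Plekhg5+/+ mice, the only Rab gene called, rested on few settings. There the number of Rab genes called was 3 with DESeq2 with or without its prior and at an adjusted p under 0.1 (Rab29, Rab32 and Rab7b), 2 without a filter on low counts (Rab29 and Rab32) and 0 with only the 2 genotypes in the fit. Leaving out 1 library gave 0 to 3. The log2 fold change of Rab29 stayed between 0.47 and 1.03 with an adjusted p of 0.00346 to 0.197, and 11 of 20 settings lost the call. For the average transgene effect, 1 Rab gene (Rab32) was called in place of 0 by DESeq2 with or without its prior, without the filter and at an adjusted p under 0.1, 2 (Rab32 and Rab44) with the covariate for Y-linked transcripts, and 0 to 1 when 1 library was left out. The other 5 comparisons had 0 Rab genes called in every setting run. The count over all genes for the transgene in Plekhg5+/+ mice was 498, from 2 without the second and 4 without the first Plekhg5+/+ library to 1190 with DESeq2. The cause was not tested.

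The labels do not state whether replicate numbers pair the samples. Over 18 pairs of same-numbered libraries the correlation of deviations ran from -0.236 to 0.474 and 7 were over 0.1. Pairs with different numbers were not read beside them, so this check cannot show whether libraries of a number belong together. With the replicate block, Rab29 and Rab32 were called with the transgene in Plekhg5+/+ mice, 2 genes in place of 1, and Rab32 for the average effect, 1 in place of 0. Rab3il1, no Rab gene itself, lost its call there (adjusted p = 0.0534).

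Rab26 changed sign only where its change was near 0. Its average effect of Plekhg5 loss was 0.0148 with the Y-linked covariate, and when 1 library was left out it ran from -0.065 to 0.0145, above 0 without the first Plekhg5+/+ SOD1G93A library (0.0023) and without Plekhg5-/- SOD1G93A replicate 3. Leaving out 1 library, the effect with the transgene ran from -0.1481 to 0.0109, above 0 without that same library, and the effect without the transgene from -0.0161, without the second Plekhg5+/+ library, to 0.0548. The average transgene effect on Rab26 stayed between -0.30 and -0.20 (adjusted p 0.0981 to 0.261). The gap between its libraries without and with the transgene was 0.0327 CPM, and -0.0425 CPM on total counts.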
